A study of Mus musculus with 4 samples.

Results

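The comparison described here sets the aorta of C3H mice against that of C57BL/6 mice when both ate a Western diet. It rests on 2 of the 4 arrays of the series, 1 per strain, taken by their strain and diet labels. All mice were females of 6 weeks that lack apolipoprotein E (apoE-/-), the ligand by which lipoprotein remnants are cleared from blood, so no array shows a wild-type aorta. The labels give the strains as C57BL/6 and C3H/HeJ, and C3H stands for the latter below. Pups were weaned at 3 weeks onto chow, and at 4 weeks were moved to a Western diet for 2 weeks or left on chow. The 2 chow arrays, 1 per strain, are used only to set the same genes side by side on the other diet. Their diet comes from the source names and descriptions, since the protocol text, shared by all 4 samples, describes the Western diet for each. The labels do not say if an array carries RNA of 1 animal or of several.

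C57BL/6 mice without apolipoprotein E are widely used because they form extensive atherosclerotic lesions, and C3H/HeJ mice are known as a resistant strain that also carries a defective Toll-like receptor 4. The aortic wall holds smooth muscle cells in an elastic matrix, an inner endothelium that senses flow, and resident macrophages, with fat and the heart base attached where it is dissected. Messenger RNA was read on a 1-colour Affymetrix array, on which a gene has 1 or more probe sets, each a group of short probes to 1 stretch of transcript.

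With 1 array on each side there is no replicate, so no test was made and no value below has an error of its own. In place of one, the text gives how far probe sets of a gene and genes of a group agreed. A probe set was counted as measured where both arrays lay above a floor signal of 83.6, the 40th percentile of all values. Where 1 array lay at or under the floor it was raised to it, and the fold is then written as at least that size. A gene is represented by its brightest probe set. Differences are C3H minus C57BL/6 on the log2 scale of the signal, and folds are ratios of signals.

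Over the 10956 probe sets measured on both Western arrays the 2 arrays correlated at r = 0.92 on the log2 scale. Hybridization controls had a median signal of 1791 on the C57BL/6 array and 1808 on the C3H array, and actin 3'/5' ratios were 1.83 and 1.63, so the pair was alike in these measures. On the C3H chow array the controls stood at 3024 and the actin ratio at 2.28. All 20 smooth muscle contractile genes named on the array were above the floor on both Western arrays, with summed signals of 123673 in C57BL/6 and 123913 in C3H. Of 18 markers of neighbouring organs such as liver, lung, thymus and kidney, 3 were above the floor on each Western array and 0 on both. Apoe, disrupted in all groups, gave 65.3 in C57BL/6 and 55.5 in C3H on Western diet and 19.1 and 16.1 on chow, under the floor on all 4 arrays.

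**Figure D1:**
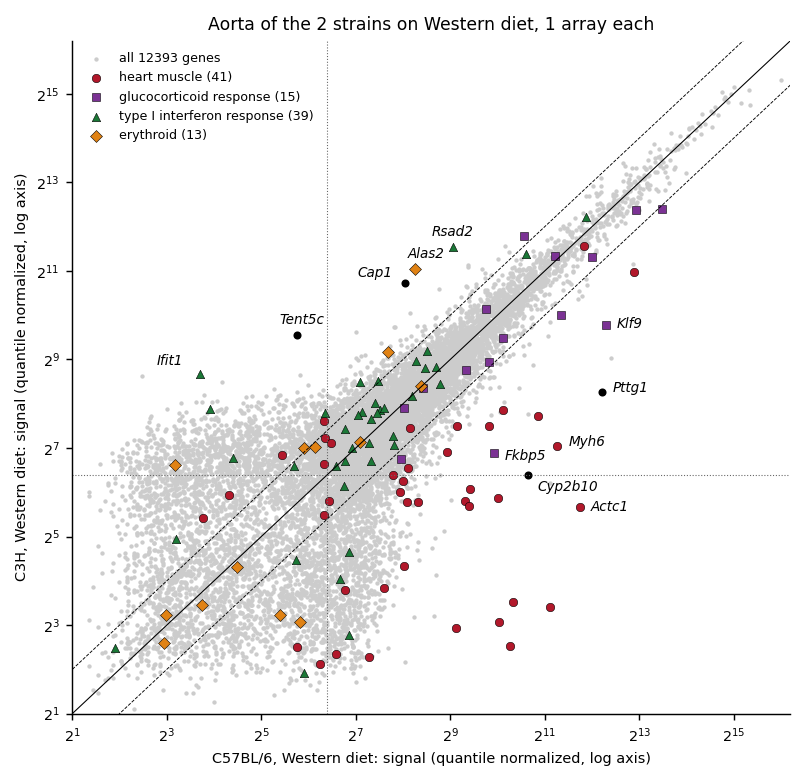
Signal of each gene's brightest probe set in C57BL/6 (x axis) against C3H (y axis) aorta on Western diet, both on log axes, with members of 4 gene lists coloured. The solid line marks equal signals, dashed lines a 2-fold difference and dotted lines the floor of 83.6; heart muscle genes lie far below the line, most glucocorticoid genes somewhat below it, and Tent5c, Ifit1, Rsad2, Alas2 and Cap1 above it.

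Of the measured probe sets, 457 (4.17%) were at least 2-fold higher in C3H and 464 (4.24%) at least 2-fold lower, a near even split. Over the 6806 genes measured on both arrays the median difference was 0.00, with 277 genes (4.07%) at least 2-fold higher and 286 (4.2%) lower. At 1.5-fold, the level used for gene groups below, 13.3% of all genes were higher and 13.4% lower. These shares are the background against which each count of a group on Western diet is read. On chow the shares at 1.5-fold were 20.8% higher and 20.4% lower, and they are the background for chow counts.

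Probe sets of the same gene showed how far a difference seen in 1 set was shared by another. Among genes with at least 2 measured probe sets, the difference varied within a gene with a pooled SD of 0.52, against an SD of 0.57 over all measured probe sets. Among the brightest tercile of signals, above 389, the values were 0.40 within genes and 0.48 over all. In the dimmest tercile, up to 192, they were 0.62 and 0.62, so sets of a gene agreed no better there than sets at large. Of the genes whose brightest probe set was at least 2-fold higher in C3H, 69 had further measured sets. Of those 93 further sets, 61 (65.6%) had the same sign, 13 (14.0%) were 2-fold higher too and 2 were 2-fold lower. For the genes 2-fold lower, 105 further sets of 79 genes gave 61 (58.1%) of the same sign, 18 (17.1%) 2-fold lower and 5 2-fold higher. A 2-fold difference in a lone probe set was thus seldom seen at that size in another set of the gene, and the genes described first are those whose sets agreed.

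All probe sets of a gene that were above the floor on at least 1 of the arrays, called usable here, were at least 2-fold apart in the same direction for 19 of 3390 genes (0.56%) higher in C3H and for 23 (0.678%) lower. Cap1, which recycles actin monomers, led the higher group with signals of 262 in C57BL/6 and 1705 in C3H, a difference of 2.70, and its other set gave 6.25-fold. Glo1, the glyoxalase that detoxifies methylglyoxal, had signals of 437 and 1541, or 3.53-fold, and its other sets gave 2.13-fold and at least 4.78-fold. Both genes were higher in C3H on chow too, Cap1 by 4.02-fold and Glo1 by 1.68-fold.

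Some of the higher genes encode surface or secreted proteins, and their share was not compared with that over all genes. The orphan receptor Gprc5b had signals of 186 in C57BL/6 and 660.4 in C3H (3.56-fold, and at least 5.01-fold by its other set). Hbegf, an EGF-receptor ligand shed from the cell surface, was 3.78-fold and at least 2.46-fold higher by its sets. Frzb, a secreted Wnt antagonist, was 2.53-fold and 2.92-fold higher. On chow the brightest sets of Gprc5b, Hbegf and Frzb were higher in C3H too, by 2.72-fold, 5.16-fold and 2.74-fold. Their other sets gave 0.28 (a bound), -0.28 and 0.00 there. Sost, another Wnt antagonist, had signals of 409 and 982, and its sets gave 2.40-fold and 2.42-fold. On chow the order of Sost was the reverse, at 553 in C57BL/6 and 210.2 in C3H. Cd44, the hyaluronan receptor of leukocytes and activated smooth muscle, was 2.07-fold and 2.44-fold higher, and Tnfrsf12a, the receptor of the cytokine TWEAK, 2.10-fold. On chow Cd44 stood at 139 and 144 and Tnfrsf12a at 746 and 906, so the strains lay closer there.

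Among the genes lower in C3H, Pttg1, which encodes securin, had signals of 4716 in C57BL/6 and 305 in C3H on Western diet and of 4118 and 288 on chow. The genes that flank it in RefSeq order and could be measured, Gabrb2 and Slu7, differed by -0.73 and -0.20, with the 5 Slu7 sets from -1.39 to 0.53. The strains can differ in sequence under a probe. Probe match and transcript level therefore cannot be told apart for Pttg1, for Cap1 or for other genes of this comparison. Sfxn1, a mitochondrial serine carrier, was 3.15-fold lower (1048 against 332), and at least 5.79-fold by its other set. Spop, an adaptor of a ubiquitin ligase, was 2.33-fold and 2.26-fold lower, and Foxo3, a transcription factor of starvation and stress, 2.06-fold and 2.17-fold. Sfxn1, Spop and Foxo3 were also lower in C3H on chow, by 3.60-fold, 3.84-fold and 2.21-fold. Heart muscle genes make up a share of the rest, among them Tnnt2, Ankrd1, Myl4, Pln and Ttn, and Cyp2b10 and Fkbp5 are described next.

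Chow separates these genes further. Of the 19 higher genes, 16 had a brightest set measured on both chow arrays. Of these 6 were at least 2-fold higher there, against 8.01% of all genes, 9 differed by less than 2-fold and 1, Sost, was 2-fold lower. Of the 23 lower genes, 19 were measured on chow, 9 of them at least 2-fold lower, against 9.1%, and 10 less than 2-fold apart. A further 2 higher and 3 lower genes passed 2-fold on chow by bound, against 28.9% and 27.3% of genes above the floor in 1 strain there. These genes were selected on Western diet alone, and over all genes 1.56% agreed as higher and 2.34% as lower on chow.

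**Figure D2:**
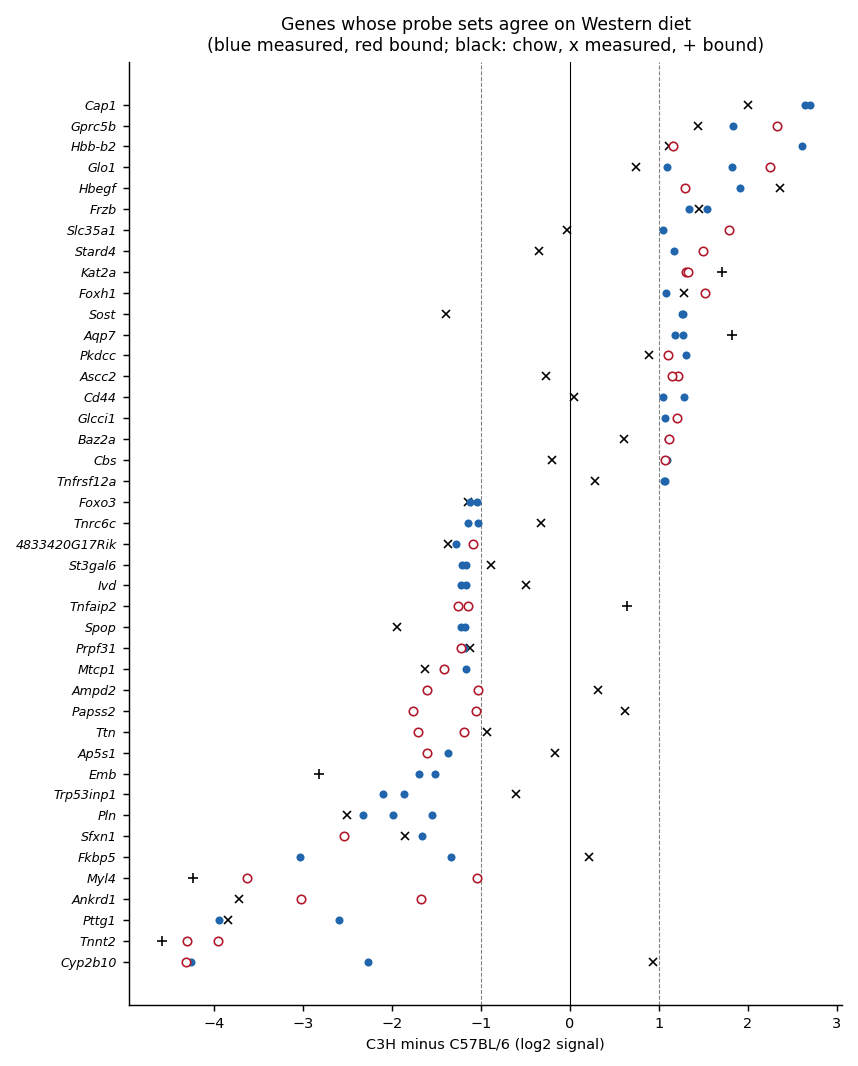
Difference between strains (log2, x axis) for every usable probe set of the 42 genes whose sets agreed on Western diet, 1 gene per line. Blue points were measured on both Western arrays, red circles are bounds, and black marks give the brightest set on chow; Cap1 and Pttg1 keep a like difference on chow, while Cyp2b10, Fkbp5 and Sost are among the genes whose chow mark lies on the other side of 0.

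The largest difference outside heart muscle was that of Cyp2b10, a drug-metabolizing cytochrome P450 and the classical target of the nuclear receptor CAR. Its signals were 1605 in C57BL/6 and 83.8 in C3H on Western diet, a 19.2-fold difference, with the C3H value at the floor. Its other sets gave at least 19.9-fold and 4.84-fold, in the same direction. On chow the order was the reverse, at 346 in C57BL/6 and 662 in C3H, and the other sets were 2.49-fold and 2.35-fold higher in C3H. Thus C57BL/6 on Western diet was the highest of the 4 arrays and C3H on Western diet the lowest, by all 3 sets. Related Cyp2b genes are close in sequence, so the signal may not belong to Cyp2b10 alone. The flanking genes Axl and Cyp2f2 differed by -0.07 and -0.15.

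Genes known to be induced by glucocorticoids were as a group lower in C3H on Western diet. Glucocorticoids act through a nuclear receptor that binds a short palindrome in DNA, and Fkbp5, Klf9, Tsc22d3, Zbtb16 and the metallothioneins are among its common targets. All 15 members of the list were measured, with a median difference of -0.63. By the 1.5-fold level 8 were lower and 1 higher, against 13.4% and 13.3% of all genes. On chow 14 were measured, with a median of 0.21, 2 lower and 4 higher, against 20.4% and 20.8% of all genes there.

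Fkbp5, the immunophilin that dampens the glucocorticoid receptor, had signals of 972 in C57BL/6 and 119 in C3H on Western diet, 8.19-fold apart, against 383 and 444 on chow. Its other set gave 2.52-fold lower on Western diet but was lower on chow as well, by 3.09-fold. Klf9, a Kruppel-like transcription factor, had signals of 5000.4 and 883 (5.66-fold) on Western diet, against 3553 and 2020.0 on chow. Its other bright sets were 2.84-fold and 1.52-fold lower, while its 6 usable sets ran from -2.50 to 0.16. The dimmer sets, at -0.66, -0.36 and 0.16, were among the smaller differences.

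Mt1 and Mt2, the metal-binding metallothioneins, had signals of 11408 and 2605 in C57BL/6 and of 5441 and 1032 in C3H, 2.10-fold and 2.53-fold lower. On chow they were 1.29-fold and 1.20-fold lower. Zbtb16, a zinc-finger repressor, was 2.32-fold lower (-0.47 by its other set) and Tsc22d3, which encodes the anti-inflammatory protein GILZ, 1.83-fold. Its 3 sets ran from -1.17 to 0.34. Glul, the glutamine synthetase, and Cdkn1a, an inhibitor of cell-cycle kinases, were 1.62-fold and 1.55-fold lower. Dusp1, a phosphatase that ends MAP kinase signals and is also an immediate early gene, was the exception among the listed genes. It had signals of 1508 in C57BL/6 and 3559 in C3H. Sgk1 (0.37), Errfi1 (0.12, and -0.53 by its other set), Per1 (-0.07), Lcn2 (-0.11) and Pdk4 (-0.55) were less than 1.5-fold apart. Outside the list, Glcci1, named as a glucocorticoid-induced transcript, was 2.09-fold higher in C3H, and at least 2.30-fold by its other set.

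The promoter of Mt1 is shown because it is the member lower in C3H whose promoter holds that palindrome. The letters searched were G, any base, ACA, any 3 bases, TGT, any base and C, on both strands of the 250 bases before the start in RefSeq's GRCm38.p6 table. They occur in 127 of 32851 promoters (0.387%), or for 119 of 27025 genes (0.44%). Among the 13 listed genes with an entry they occur in the promoters of Mt1 and Sgk1. Such a match is a string of letters and does not show that the receptor binds there. The 160 bases before the Mt1 start read as follows, with the match in capitals, 94 bases before the start.
Mt1, chr8:94178929-94179088, plus strand: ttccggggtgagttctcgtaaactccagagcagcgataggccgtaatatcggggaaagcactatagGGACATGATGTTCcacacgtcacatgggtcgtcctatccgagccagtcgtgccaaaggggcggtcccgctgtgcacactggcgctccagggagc

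Because Foxo3, Trp53inp1, Pink1 and Klf9 stood out, a list of genes known for FOXO control and nutrient deprivation was added with these values in view. These 4 genes prompted the list, so a count that holds them restates their values. Without them, 5 of 18 measured members were at least 1.5-fold lower in C3H and 0 higher, with a median of -0.10, against 9 of 22 and -0.18 with them. Trp53inp1, an autophagy and p53 response gene, had signals of 1122 and 263 and was 4.27-fold and 3.63-fold lower by its sets. Pink1, the kinase that marks damaged mitochondria, was 4.30-fold lower (925 against 215), and Atg14, an autophagy initiation factor, 3.12-fold. The sets of the atrophy ligase Fbxo32 disagreed (0.51 and -1.08), and Txnip differed by -0.03. On chow, without the 4 genes, 6 were lower and 6 higher of 17, against 20.4% and 20.8% of all genes there. A list of xenobiotic response genes was made in the same way after Cyp2b10 was seen. Without Cyp2b10, 4 of 11 measured members were lower and 0 higher, with a median of -0.09, and since the members were picked with values in view neither list supports the genes that prompted it. The 4 were Aldh1a7 (2.77-fold), Sult1a1 (2.30-fold), Aldh1a1 (2.11-fold) and Cyp1b1 (1.96-fold, with its 3 sets from -0.97 to 0.13). Cyp1a1 was at least 2.25-fold lower. Heart muscle transcripts also differed between these 2 arrays, with summed signals of 34825 in C57BL/6 and 7971 in C3H and of 42577 and 10001 on chow, and their part in the values of this paragraph and of the glucocorticoid genes was not tested.

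**Figure D3:**
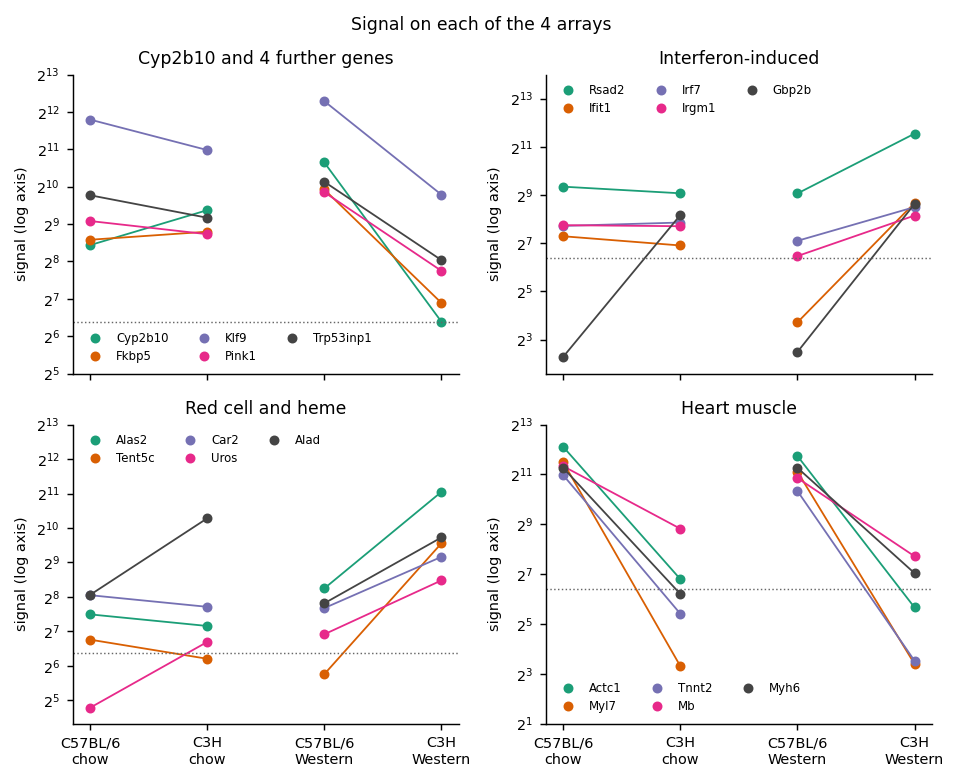
Signal (log axis) of 5 genes per panel on each of the 4 arrays, with lines joining the strains within a diet and a dotted line at the floor of 83.6. By the brightest sets, shown here, Cyp2b10 and Fkbp5 are farther apart on Western diet than on chow. Rsad2, Ifit1, Alas2 and Tent5c are high on the C3H Western array alone, and heart muscle genes differ on both diets.

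Interferon-induced genes leaned the other way, higher in C3H. Genes induced by type I interferon often carry a short promoter motif, the interferon-stimulated response element (ISRE), and the response is known for antiviral enzymes and guanylate-binding proteins. Of 39 list members named on the array 26 were measured, with a median of 0.33. By 1.5-fold 10 were higher and 2 lower, against 13.3% and 13.4% of all genes. A further 5 were above the floor in C3H alone and 4 in C57BL/6 alone. On chow the median was 0.40, with 8 higher and 3 lower of 23, against 20.8% and 20.4% of all genes there.

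Promoters of 5 of these genes and the related GTPases are shown because their ISRE core, GAAA then any 2 bases then GAAA on either strand, is the sequence by which interferon-induced genes are usually recognized. It occurs in the 250 bases before the start of 978 of 32851 promoters (2.98%), or for 936 of 27025 genes (3.46%). Of the type I list 8 of 27 genes with an entry hold it, 5 of the 10 with an entry that were at least 1.5-fold higher in C3H and 3 of the other 17. Bounds, such as that of Ifit1, count as higher here, so these 10 are not the 10 measured members given above. Of the interferon-induced GTPases 7 of 7 hold it, whether higher in C3H or not. The last 160 bases before each start are printed 5' to 3' on the gene's strand, from RefSeq's GRCm38.p6 table, with the core in capitals. In Ifit1 and Ifit3 it occurs 2 times, in Irgm1 the 2 matches overlap, and TTTC, 2 bases and TTTC is the same core on the other strand.
Rsad2, chr12:26456453-26456612, minus strand: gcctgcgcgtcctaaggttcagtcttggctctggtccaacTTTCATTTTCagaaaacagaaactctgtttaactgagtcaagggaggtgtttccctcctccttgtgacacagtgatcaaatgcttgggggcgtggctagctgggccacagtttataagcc
Ifit1, chr19:34640729-34640888, plus strand: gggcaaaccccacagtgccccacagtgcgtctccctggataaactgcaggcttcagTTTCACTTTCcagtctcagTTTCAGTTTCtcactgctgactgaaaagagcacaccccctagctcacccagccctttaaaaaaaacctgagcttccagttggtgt
Ifit3, chr19:34583369-34583528, plus strand: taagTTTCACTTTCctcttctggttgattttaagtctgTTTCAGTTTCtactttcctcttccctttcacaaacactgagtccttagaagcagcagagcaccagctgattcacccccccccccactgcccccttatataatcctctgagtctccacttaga
Irgm1, chr11:48871421-48871580, minus strand: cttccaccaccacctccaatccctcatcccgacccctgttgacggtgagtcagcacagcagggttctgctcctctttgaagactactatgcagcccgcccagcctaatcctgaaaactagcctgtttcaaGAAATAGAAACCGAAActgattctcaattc
Gbp2b, chr3:142594687-142594846, plus strand: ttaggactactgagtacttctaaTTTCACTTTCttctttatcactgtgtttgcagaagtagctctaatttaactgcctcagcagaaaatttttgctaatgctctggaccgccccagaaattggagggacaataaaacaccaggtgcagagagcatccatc

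Rsad2, which encodes the antiviral enzyme viperin, had signals of 535 in C57BL/6 and 2987 in C3H on Western diet, 5.59-fold apart, and of 650.2 and 537 on chow. Its other sets gave 3.21-fold and 1.37-fold in the same direction. Ifit1, which binds foreign RNA caps, was under the floor in C57BL/6 (13.1) and at 407 in C3H, at least 4.87-fold higher, while on chow it stood at 156 and 119.8. The C3H Western array was thus the highest of the 4 for both genes, and the strains lay close together on chow.

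Irf7, the transcription factor that amplifies the response, had signals of 137 and 361 (2.64-fold) on Western diet and of 210.3 and 232 on chow. Usp18, which removes the ubiquitin-like modifier ISG15, was at least 2.64-fold higher and Zbp1, a sensor of Z-form nucleic acid, at least 2.81-fold. Ifit3 was 2.05-fold higher on Western diet and 2.45-fold on chow, and Ifitm3, which blocks virus entry, 1.72-fold and 1.65-fold. In the other direction Eif2ak2, the kinase PKR, was 1.68-fold lower and Ifitm1, which also blocks virus entry, 1.52-fold. Ifit2 lay under the floor in C3H against 117 in C57BL/6, and Dhx58 at 6.83 against 115. The list was thus mixed, with the related genes Ifit1 and Ifit2 on opposite sides.

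The interferon-induced GTPases, which coat intracellular pathogens, had 7 measured members of 10 with a median of 0.49, 3 higher and 1 lower. Irgm1 had signals of 88.3 in C57BL/6 and 283 in C3H (3.21-fold) on Western diet and of 215 and 208 on chow. Gbp2b was near the array's lowest signals in C57BL/6 on both diets (5.58 and 4.86) and at 395 and 287 in C3H, at least 4.73-fold and 3.44-fold higher. Igtp and Gbp6 differed by 0.70 and 0.79, Gbp3 was at least 2.31-fold lower, and Irgm2 stood at -0.62. Macrophage markers had a median of 0.10 between the Western arrays, and their summed signal was 10044 in C57BL/6 and 11867 in C3H; their part in the interferon values was not tested.

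Some genes of red cells and heme synthesis were higher on the C3H Western array, while the heme and iron list was mixed. Of its 19 measured members 6 were higher and 4 lower by 1.5-fold, with a median of 0.22. Heme is made by a chain of enzymes, and Alas2 is the erythroid form of the first. Alas1, the form used in other tissues, differed by -0.09 and by -1.53 in its other set. Alas2 had signals of 304 in C57BL/6 and 2116 in C3H on Western diet, 6.97-fold apart, and of 180.3 and 143 on chow. Car2, the carbonic anhydrase of red cells and other tissues, was 2.80-fold higher (204 against 573) and stood at 265 and 209.8 on chow. Of the heme enzymes, Uros was 2.96-fold higher (121 against 357), Urod 1.49-fold, and Fech, which inserts the iron, 1.81-fold. The Fech sets ran from -0.38 to 1.18. Blvrb, a biliverdin reductase, was 2.06-fold higher. Alad, the second enzyme, was 3.76-fold higher (225 against 846) but was also 4.66-fold higher on chow, so its difference was seen on both diets. Its RefSeq neighbour Hdhd3 was 2.22-fold higher and its other neighbour Pole3 differed by -0.57.

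Tent5c, a noncanonical poly(A) polymerase, had the largest bound among genes higher in C3H, at 54.1 in C57BL/6 and 752 in C3H (at least 3.17 on the log2 scale), against 108 and 73.8 on chow. Hbb-b2, a beta globin, was higher by both sets, at least 2.23-fold and 6.09-fold, although probes to the near-identical beta globin genes cannot keep them apart. On chow its sets went in opposite directions (1.11 and -1.40). The erythroid list as a whole had only 4 of 13 members measured, 2 higher and 0 lower, with 3 more above the floor in C3H alone. Its summed signal was 1267 in C57BL/6 and 3586 in C3H, but without Alas2 and Car2 the other 11 members summed to 759 and 896. On both Western arrays 6 members stayed under the floor, among them Hba-a1 (56.5 and 8.41) and Klf1 (22.3 and 19.9). Whether blood cells in the sample differed between the arrays was not tested. Tfrc, the transferrin receptor, differed by 0.20 and 1.10 in its sets. Hmox1, which breaks heme down, was 2.26-fold lower in C3H and Ireb2, an iron sensor, 2.21-fold.

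Heart muscle genes were far lower in C3H, as on chow. Of 41 named on the array 11 were measured on Western diet, 9 of them lower and 1 higher by 1.5-fold, and their median was -1.92. Another 21 were above the floor in C57BL/6 alone and 4 in C3H alone. The summed signal was 34825 in C57BL/6 and 7971 in C3H, and 26 members lay at or under the floor in C3H against 9 in C57BL/6. By bound, 17 of those 21 were at least 2-fold lower in C3H, against 19.2% of all genes above the floor in C57BL/6 alone, and 1 of the 4 was 2-fold higher, against 20.3%. On chow the median was -1.88, with 11 lower and 1 higher of 15.

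Actc1, cardiac actin, had signals of 3428 and 50.7 on Western diet (at least 41.0-fold lower) and the atrial light chain Myl7 of 2216 and 10.5 (at least 26.5-fold). Sarcolipin, Sln, an atrial inhibitor of the calcium pump, was at least 14.6-fold lower. Myh6, the fast cardiac myosin, was 18.7-fold lower by its bright set (2463 against 132). Tcap of the Z-disc and Nppa, the atrial natriuretic peptide, were 4.80-fold and 4.04-fold lower. Not all members were lower. Fabp3, the fatty acid binder of heart and brown fat, stood at 3659 and 3011. The cardiac transcription factors were low but higher in C3H, Tbx20 at 89.3 and 138 and Nkx2-5 at 79.8 and 196. In such bulk tissue fewer cells of a type and less RNA per cell cannot be told apart.

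**Figure D4:**
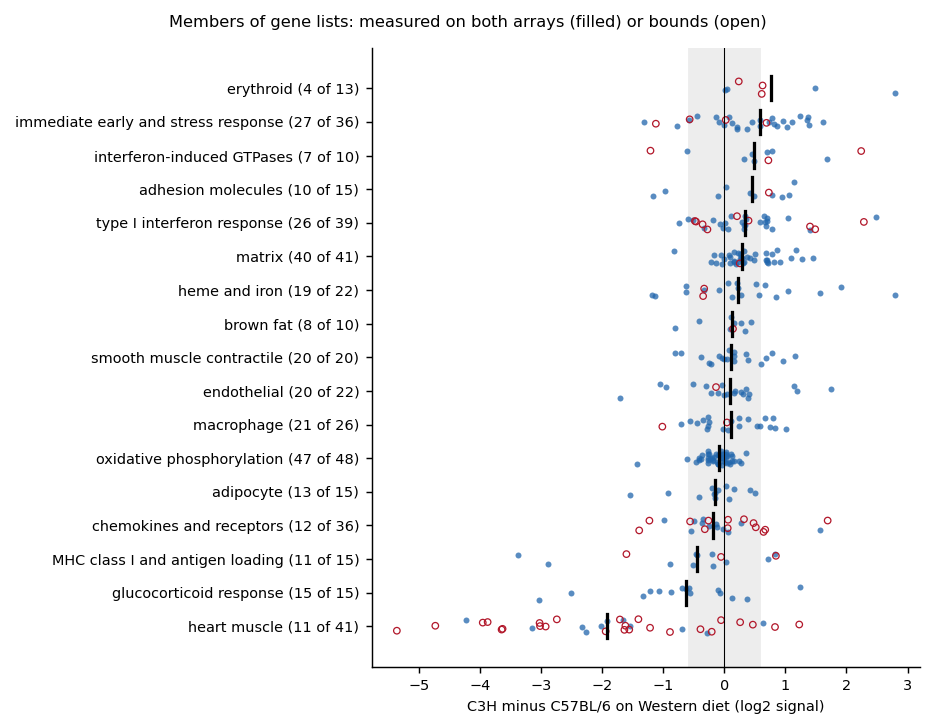
Difference between strains on Western diet (log2, x axis) for each member of 17 gene lists, 1 list per line, with the number measured on both arrays of those named on the array. Filled points were measured on both arrays, open circles are bounds, black bars are medians of the filled points, and the grey band spans 1.5-fold either way; heart muscle (-1.92) and glucocorticoid genes (-0.63) lie to the left.

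Immediate early genes, which answer growth factors, flow and handling stress within minutes, were higher in C3H. The list had 27 measured members with a median of 0.58, 13 higher and 2 lower. Without the members shared with the glucocorticoid list the median was 0.59. Atf3, a stress transcription factor, had signals of 136 in C57BL/6 and 418 in C3H, the orphan receptor Nr4a1 of 809.9 and 2107, and Egr1 of 549.8 and 1181. Fos was 2.56-fold higher and the inducible heat shock gene Hspa1b 2.58-fold. Gadd45b, which answers DNA damage and NF-kappaB, was 2.48-fold lower by its bright set, while its other usable set gave 0.55. On chow the median was 0.56 with 13 higher and 2 lower, but Fos was reversed there, at 1487 and 519.

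Endothelial genes were on balance even, with 20 measured, a median of 0.10, 3 higher and 3 lower. Klf2, the transcription factor induced by laminar flow, was the largest of the higher ones, at 667 in C57BL/6 and 2231 in C3H (3.35-fold), and at 876 and 2417 on chow. Klf4, its relative from the immediate early list, was 2.05-fold higher, Icam2 2.21-fold and the VEGF receptor Kdr 2.28-fold. These 4 were higher on chow as well, by 2.76-fold, 2.22-fold, 2.20-fold and 2.04-fold. Flt1, the other VEGF receptor, had a brightest set 3.28-fold lower on Western diet, but its other sets gave -0.02 and 0.32. Vwf, the platelet-binding factor, was 1.94-fold lower (1731 against 891).

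Matrix genes were modestly higher in C3H. Of 40 measured members 13 were at least 1.5-fold higher and 1 lower, with a median of 0.30. On chow 30 of 38 were lower and 1 higher, with a median of -1.42. Elastin, Eln, had signals of 4669 in C57BL/6 and 7701 in C3H on Western diet and of 20521 and 3487 on chow. Col1a1 and Col3a1, the fibrillar collagens, were 1.62-fold and 1.60-fold higher on Western diet and 6.43-fold and 3.79-fold lower on chow, although the other Col1a1 set differed by 0.00 on Western diet. The C57BL/6 chow array was the highest of the 4 for all of these, and the C3H chow array the lowest. Mfap4, a microfibril protein, and the proteoglycans Lum and Vcan were 2.42-fold, 2.25-fold and 2.13-fold higher on Western diet, and the 3 Vcan sets ran from 0.90 to 1.35. Fibronectin, Fn1, stood at 2519 and 2511.

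Smooth muscle contractile genes lay close together on Western diet, with a median of 0.12, 5 higher and 2 lower of 20. Tagln had signals of 18838 and 18678, Myh11 of 8093 and 7920.4 and Acta2 of 40729 and 34861. The other sets of Myh11 and Acta2 gave -0.87 and 0.26. Cnn1, the calponin, was 1.61-fold higher and Synpo2 2.23-fold. On chow 15 of the 20 were lower in C3H, with a median of -0.83.

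Adhesion molecules, by which leukocytes hold to the vessel wall, had 10 measured members with a median of 0.45, 4 higher and 2 lower by 1.5-fold. Icam1 was 1.73-fold higher (179 against 309.5) and Selp, an endothelial selectin, 1.92-fold, while Vcam1 differed by 0.42, 0.13 and -0.28 in its 3 sets. Icam2 and Cd44, given above, were the other 2 higher members. Selplg, the selectin ligand of leukocytes, was 1.96-fold lower. Jam2 was 2.25-fold lower by its bright set, while its other set differed by 0.79, the opposite direction. Ccl2 was under the floor in C57BL/6 (23.2) and just above it in C3H (105). Ccl8, a monocyte chemokine, was 2.97-fold higher (213 against 632) and Cxcl16 at least 3.23-fold. The monocyte receptors Cx3cr1 and Ccr2 were at least 2.62-fold and 2.34-fold lower. Of 12 chemokine genes measured on both arrays 1 was higher and 1 lower, a share near the background. Among macrophage genes, 5 of 21 were higher and 1 lower, with a median of 0.10. Tyrobp was 2.01-fold, Cd68 1.58-fold and Csf1r 1.77-fold higher. The lower one was Aif1, by 1.63-fold, and by bound Fcgr1 was at least 2.02-fold lower. All 3 C1qb sets were lower as well, from -1.51 to -0.22. The 3 Csf1r sets disagreed, from -0.52 to 0.83.

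Tlr4, mutated in C3H/HeJ, had signals of 217 and 225 on Western diet, with a difference of 0.75 by its other set, and on chow of 260.3 and 39.2. Myd88, the adaptor of Toll-like receptors, was 2.63-fold lower (269.7 against 102). The Toll-like receptor signalling list as a whole had 14 measured members, 0 higher and 2 lower, with a median of -0.06. Nnt, a mitochondrial transhydrogenase that some C57BL/6 substrains carry in truncated form, differed by 0.33. MHC class I and antigen loading genes were split, 2 higher and 3 lower of 11, with a median of -0.45. H2-K1 and H2-D1 were 10.4-fold and 7.37-fold lower by their bright sets, while the 4 H2-K1 sets ran from -3.38 to 0.08 and the 7 usable H2-D1 sets ran from -3.10 to 4.19. Inbred strains carry different alleles of these genes, so probe match and transcript level cannot be told apart. The immunoproteasome subunits Psmb8 and Psmb9, in the same locus, were 1.78-fold and 1.65-fold higher, while Tap1, the peptide transporter encoded beside them, was at least 3.03-fold lower (254 against 34.4).

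Mitochondrial and adipocyte groups had medians near 0. Oxidative phosphorylation genes had a median of -0.08 over 47, with 0 higher and 2 lower. Adipocyte genes had a median of -0.14 with 0 higher and 2 lower of 13, where Retn, the adipokine resistin, was 2.91-fold lower and Pparg 1.90-fold. On chow the same groups stood at 0.49 and 0.79, and brown fat genes at 1.61 against 0.13 on Western diet. Of 16 fatty acid synthesis genes 5 were higher and 1 lower, with summed signals of 99482 in C57BL/6 and 80890 in C3H. The lower one, Scd1, had signals of 65163 and 40729 (1.60-fold), and differed by -0.18 in its other set. Acaca, the first enzyme of the pathway, was 2.48-fold higher and the elongase Elovl5 2.15-fold, with 0.32 by its other set. The sets of the desaturase Fads2 disagreed, at 1.20 and -0.98. Among sterol genes, Stard4, a cholesterol carrier, was at least 2.83-fold higher. The sets of the cyclase Lss (at least 1.47, and -0.23) and of Srebf2, the factor that drives the pathway (-1.46 and 0.31), disagreed. The sterol list as a whole had a median of -0.17, with 2 higher and 1 lower of 12. Another 4 members were above the floor in C3H alone, 3 of them at least 2-fold higher by bound, against 20.3% of all such genes. In C57BL/6 alone there was 1, and it did not pass 2-fold. With no filter the list median was 0.13. Genes of the IGF system had 4 of 11 higher and 0 lower, with Irs2 at 2.49-fold and Irs1 at 2.14-fold.

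Genes with a lone probe set gave further large differences that have no other set on the array. Higher in C3H were Clec3b, a plasminogen-binding lectin (4.08-fold), Palld, an actin scaffold (3.89-fold), Sncg (3.80-fold), Rbp7, a retinol-binding protein (3.73-fold), Nav2 (3.53-fold) and Hs3st1 (3.49-fold). Lower were Rasl11b (4.73-fold), Inmt, a methyltransferase (4.26-fold), Usp5 (3.58-fold) and Arf5 (3.50-fold). Rbp7 stood at 284 and 1060.4 on Western diet and at 63.1 and 3083 on chow, so the C3H chow array was the highest of the 4. Inmt was 4.62-fold lower on chow. By bound, Spats2l was at least 3.86-fold higher, Ptprr 3.68-fold and Nfatc2 4.31-fold, and another Nfatc2 set gave a bound of 0.29 on the log2 scale. On chow Spats2l was at least 2.67-fold lower in C3H.

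For 8 genes measured probe sets were at least 2-fold apart in opposite directions. Tbcd, a tubulin chaperone, gave 1.51 and -1.49, Sox17, an endothelial transcription factor, 1.30 and -1.06, and the 5 usable sets of Mynn ran from -1.65 to 1.12. Trpm7 spanned -1.44 to 1.18 and B230308N11Rik -1.12 to 1.31. Smarca5 reached 1.45 in 1 set and was 2-fold lower in another. Nolc1 (-1.02 to 1.19) and Slc9a3r2 (-1.08 to 1.24) complete the group, and no direction is given for these genes.

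**Figure D5:**
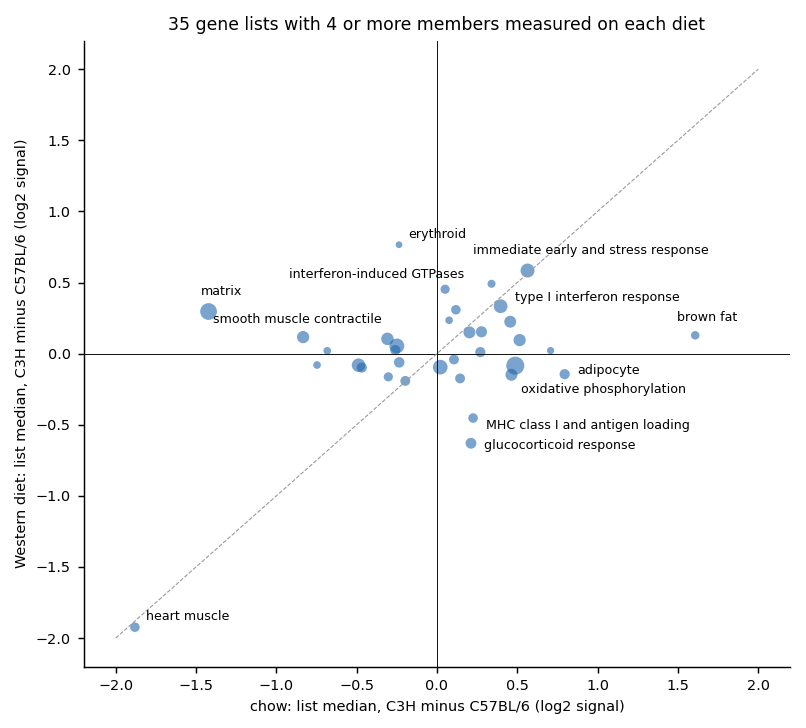
Median difference between strains (log2) of 35 gene lists on chow (x axis) and on Western diet (y axis), with point size growing with the number of members measured on Western diet and a dashed line at equal medians. Most lists lie within 0.5 of 0 on Western diet and spread from -1.88 to 1.61 on chow; heart muscle (-1.88 and -1.92) lies on the line, and glucocorticoid genes (0.21 and -0.63) and matrix (-1.42 and 0.30) on opposite sides of 0.

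Across the array the strains were closer on Western diet than on chow, where 863 (8.2%) of 10522 measured probe sets were at least 2-fold higher in C3H and 941 (8.94%) lower. The 2 diets share no array, so each gives its own values. The C3H chow array is also the one whose controls stood apart, and its part in the wider spread on chow was not tested.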

How the data were processed

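RNA from aortas of 4 groups of apoE-/- mice (C57BL/6 or C3H, chow or Western diet) was hybridized to 1 array each. Per the labels' protocols, 8 ug of Trizol-extracted total RNA was turned into biotin-labelled cRNA. Deposited for each array were intensities on a linear scale for 22690 probe sets, and the 4 arrays share a mean of 250.1 after trimming 2% at each end, with medians of 110.3 to 128.1. The labels name no software for them.

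The 64 control probe sets were left out, and log2 values were quantile normalized over the 4 arrays. No detection calls were used. The floor is a threshold of this work. Probe sets were named from the platform annotation: 20380 name 1 gene, 691 several and 1555 none, for 12393 genes. Promoters came from RefSeq's GRCm38.p6 table.

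Every difference is between 2 arrays, so no test was run. The number of arrays limits the precision. The comparison, the 38 gene lists and the rule for named genes were chosen with earlier results of these data known. Named genes are up to 12 per direction whose probe sets agree, up to 8 per direction with a lone set, up to 6 each way that rest on a bound, up to 6 with opposed sets, up to 6 of each list (all of a list of 12 or fewer) and 12 fixed genes. Other genes named, such as Foxo3, Spop, Tnfrsf12a, Egr1, Klf4, Eln, Fech, Tsc22d3, chromosomal neighbours and members of the 2 lists added later, were chosen after their values were seen. Functions were tested on simulated data. Alternatives were deposited values, equal medians, cyclic loess (limma 3.58.1, R 4.3.3), quantiles over the pair, floors at the 25th and 60th percentile, no filter, 1 set per gene, other fold limits, list medians over all probe sets and, chosen after seeing the data, lists without some members. Work was done in Python 3.11.15 with pandas 2.3.3, numpy 2.4.6, matplotlib 3.10.9 and scipy 1.17.1.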

Additional observations from a re-analysis of the deposited data

Results flagged for a closer look

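With 1 array per group, no difference between the diets could be tested. The results here are those that stood on opposite sides of 0 on the 2 diets. Among gene lists, the median C3H minus C57BL/6 difference of glucocorticoid response genes was -0.63 on Western diet and 0.21 on chow. It was 0.30 and -1.42 for matrix genes, 0.77 and -0.24 for erythroid genes (4 measured on each diet, and above 0 on chow too at 0.06 with a lower floor and 0.33 with none), and -0.45 and 0.22 for MHC class I and antigen loading genes.

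Among named genes measured on both arrays of both diets, 6 were at least 2-fold apart in opposite directions on Western diet and chow, each in its brightest probe set. These were Mfap4 (1.27 and -2.72), Lum (1.17 and -1.64), Fos (1.36 and -1.52), Sost (1.26 and -1.40), Acaca (1.31 and -1.06) and Flt1 (-1.71 and 2.36). The other sets of Flt1 differed by -0.02 and 0.32 on Western diet. Both Sost sets reversed. Where bounds are used as well, the brightest sets of Spats2l (1.95 and -1.42) and Rps6 (1.40 and -1.26) were also reversed.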

How the results depend on the processing

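Of 1932 alternative values of the 276 named genes 1730 stayed within the within-gene spread and 202 moved. Among the 132 that were at least 2-fold apart none changed sign under these alternatives, and 2 values of smaller differences did. Moving or dropping the floor cannot reverse the sign of a gene, so only the other scalings could do so. Those scalings use the same arrays and say nothing of other animals. Of 297 alternative values of list medians on Western diet 277 stayed and 20 moved. Among all 297 values, moved or not, 19 changed sign, over 13 list medians. Each of these medians was within 0.17 of 0 in the reported setting. Fatty acid synthesis and oxidation, cholesterol synthesis and Toll-like receptor signalling were among them. No paired analysis was possible because each group has 1 array and the labels give no replicate numbers.

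Counts followed the floor and the fold limit. On Western diet, probe sets 2-fold higher and lower numbered 1261 and 1271 under a 25th percentile floor, 170 and 173 under a 60th, 4292 and 4361 with no filter, 277 and 286 with 1 set per gene, 1483 and 1491 at 1.5-fold and 51 and 65 at 3-fold. Genes whose sets agreed numbered 103 and 90, 7 and 11, and 147 and 155 under those floors and no filter, and 106 and 101 at 1.5-fold. On chow the probe set counts were 1829 and 1893, 434 and 506, and 5114 and 5205. Higher calls were 49.6% of all 2-fold calls and 45.1% to 52.2% under other scalings.

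The heart muscle median was -2.32 with no filter and -1.68 with members under the floor raised to it, an alternative chosen after seeing the data. The matrix median was 0.20 and the immediate early median 0.46 with equal array medians, the latter also 0.46 over all probe sets. The erythroid median was 1.49 at the 60th percentile floor and 0.045 with no filter. On chow, the heart muscle median was -1.54, -0.50 and -2.51 under the 2 floors and no filter, the erythroid 0.33 with no filter, the interferon 0.22 at the 60th percentile floor and the immediate early 0.37 with equal medians. Interferon members higher numbered 6 at the 60th percentile floor, 16 with no filter and 3 at 2-fold. At 2-fold, matrix had 4 higher, immediate early 7 higher and glucocorticoid 5 lower.

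With 1 array per group, strain cannot be told apart from animal, dissection or hybridization. Signals near the floor were the least precise, with a within-gene SD of 0.62 in the dimmest tercile against 0.40 in the brightest. The SD over all sets of the dimmest tercile was 0.62 as well, so agreement of dim sets is a weak check.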

Other observations

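Several groups that the comparison did not turn on held single large differences on Western diet. Of 13 measured Wnt receptors and antagonists 4 were at least 1.5-fold higher in C3H and 2 lower, with a median of 0.03. Fzd4, a receptor for Wnt and norrin, had signals of 665 in C57BL/6 and 2190.4 in C3H by its bright set, while its other set differed by -0.24. Igf1, the growth factor, stood at 249.6 and 469 on Western diet and at 607 and 218 on chow. Of 19 heat shock genes 5 were higher and 1 lower, with a median of 0.15, and of 30 glutathione and oxidant defence genes 4 were higher and 6 lower, with a median of -0.10. Circadian clock genes (12 measured, median -0.04) and ribosomal protein genes (31 measured, median 0.05) were near 0.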
